A study of Mus musculus with 2 samples.

Results

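Epithelial cells of the choroid plexus were described in 2 pooled libraries of mouse hippocampal cells. A cell was taken as choroid plexus epithelium when its deposited value for Ttr was at least 100 and at least 2 of 8 further markers (Folr1, Kl, Clic6, Prlr, Kcne2, Calml4, Kcnj13 and Otx2) had a value of at least 2. The cells were thus chosen by their measured values of these 9 genes, and the rule took 131 of 15930 cells. Of these, 61 of 7094 came from the wild-type library, a share of 0.860% with an exact Clopper-Pearson 95% interval of 0.658% to 1.10%. The other 70 of 8836 came from the knock-in library, a share of 0.792% with an interval of 0.618% to 1.00%. The intervals of both shares overlapped, and they cover counting error only.

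Both genotypes were of the strain C57Bl.6/J, and the tissue was the hippocampus of both sides. The wild-type controls and the homozygous Pigv341E knock-in mice each gave 8 hippocampi from 4 animals, which were dissociated mechanically at 4 °C and pooled by genotype. Each genotype was therefore 1 droplet library (10x Genomics Chromium, v3 chemistry), and both were sequenced on 1 lane of the same instrument. The enzyme made from Pigv adds a mannose during assembly of glycosylphosphatidylinositol (GPI), a lipid anchor by which many proteins are held at the cell surface, and the study asked what a defect in this pathway does to the hippocampus. The age and sex of the mice are not given in the sources used here. Without replicate libraries, genotype and library cannot be told apart, and no difference between them was tested.

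The choroid plexus is a fringe of secretory epithelium that projects into the brain ventricles, and the plexus of the lateral ventricle lies against the hippocampus. Its cells make most of the cerebrospinal fluid by pumping sodium, chloride and bicarbonate across their apical membrane, with water following. They form the blood-cerebrospinal fluid barrier through tight junctions, move folate, thyroid hormone and other solutes across it, and secrete carrier proteins such as transthyretin.

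The table held depth-corrected values for 30223 genes, as whole numbers, with totals of 4846 to 14501 per cell. The total lay between 6404 and 12739 in the wild-type choroid plexus cells (median 8016) and between 6588 and 13205 in the knock-in ones (median 10252). The median number of genes above 0 in a choroid plexus cell was 2473 in the wild-type library against 2797.5 in the knock-in library. In all other cells the medians were 3142 and 3747. Of the barcodes, 28 occurred in both libraries, and 0 of them belonged to a choroid plexus cell. In what follows, a level is what a gene contributed, over a set of cells, to each 10000 of their values. A ratio is the log2 of 2 such levels after 0.1 was added to each. A gene was past the size rule when the ratio was at least 1 in size, the higher level at least 1, and at least 10% of the cells of that higher set had a value above 0. These are rules of size and carry no error rate.

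Ttr encodes transthyretin, the thyroxine and retinol carrier of the cerebrospinal fluid. The values that chose the cells are given as a description only. Among wild-type choroid plexus cells the Ttr value was 101 in the lowest, 1779 in the median and 5441 in the highest cell. In the knock-in library the lowest value was 106, the median 1792.5 and the highest 4706. Ttr thus took a median of 21.97% of all values of a wild-type choroid plexus cell and 20.2% of those of a knock-in one. The lowest cells inside the threshold had Ttr values of 101, 106, 108, 115 and 121, and the highest outside it with enough further markers had 97, 95, 95, 92 and 92. The threshold hence fell within a run of values and not in a gap. Cells with Ttr of at least 500 numbered 55 in the wild-type library, of which 49 also had 2 further markers, and 62 in the knock-in library, of which 61 did. The median choroid plexus cell had 4 of the 8 further markers in the wild-type library against 5 in the knock-in library.

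The label was checked on 29 other genes known from choroid plexus, none of which the rule used. Of those that reached the limit on level, 22 of 23 were past the size rule on the higher side against all other cells in the wild-type library, and 23 of 24 in the knock-in library, with 0 on the lower side. Over all genes, 27.9% of 2773 were past on the higher and 52.5% on the lower side in the wild-type library, and 28.4% and 58.6% of 2752 in the knock-in library. In both libraries at once, 78.1% of 2594 compared genes were past the size rule in the same direction in both libraries, 27% higher and 51.1% lower in the choroid plexus cells. The median ratio of the 29 choroid genes was 3.56 and 3.38, where the median over all genes was -0.79 and -0.86. The limit on level takes a gene through whichever set is higher, so the counts describe the genes and are no support for the label by themselves. All 29 genes had a ratio above 0 in both libraries. Because Ttr fills so much of these cells' total, leaving it out of the sums moved the median of all genes by 0.29 in the wild-type library against 0.22 in the knock-in library, and split the calls 875 to 891 in place of 700 to 1326.

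The carriers and secreted factors had a median ratio of 4.19 in the wild-type library against 3.85 in the knock-in library. Enpp2, which encodes the secreted lysophospholipase autotaxin, had levels of 177 and 184 per 10000 in choroid plexus cells of the wild-type and knock-in library, against 4.94 and 4.00 in all other cells. The gene 1500015O10Rik, which encodes the secreted peptide augurin, stood at 21.3 and 21.7 against 0.0467 and 0.0522. Igfbp2, a binding protein of insulin-like growth factors, was at 15.6 and 17.0 against 0.113 and 0.184. Sostdc1, a secreted antagonist of BMP and Wnt signalling, was at 9.01 and 9.89 against 0.0219 and 0.0191. In the rest of the hippocampal cells the last 3 genes were thus close to 0. Of the carriers and secreted factors that reached the level, 15 of 16 were past the size rule upward in the wild-type library and 14 of 16 in the knock-in library. Cst3, which encodes the protease inhibitor cystatin C, was not among them: its level of 25.4 and 28.7 lay beside 24.6 and 25.6 in the other cells.

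Genes of fluid secretion were divided. Against the other cells, 12 of 18 were past the size rule upward and 3 downward in the wild-type library, and 11 and 3 of 18 in the knock-in library. Fxyd1, a regulatory subunit of the sodium pump, was at 9.41 and 7.07 per 10000 against 0.0940 and 0.112. Slc4a2, an anion exchanger that carries chloride and bicarbonate, was at 3.01 and 3.68 against 0.129 and 0.126. Slc12a2, the sodium-potassium-chloride cotransporter of the apical membrane, was at 2.77 and 2.96 against 1.21 and 1.02. The carbonic anhydrase gene Car2 was at 2.58 and 3.05 against 0.964 and 0.855, and Car12 at 1.56 and 1.88 against 0.458 and 0.384. Values for Kcne2, Clic6 and Kcnj13, which encode channel proteins, belong to the rule: they were at 2.47 and 3.09, at 3.38 and 3.60, and at 0.390 and 0.568.

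Among solute transporters, 6 of 10 genes were past the size rule upward and 2 downward in the wild-type library, and 8 and 2 of 12 in the knock-in library. Folr1, the folate receptor that moves folate into the cerebrospinal fluid and a rule marker, was at 10.0 and 10.8 against 0.0309 and 0.0200. Slco1c1, which transports thyroid hormones, was at 2.71 and 3.65 against 0.345 and 0.415. Slc31a1, a copper transporter, was at 2.08 and 2.02 against 0.236 and 0.250. Of the hormone and transmitter receptors, 3 of 11 were past the size rule upward and 7 downward in each library, a downward share near the 52.5% and 58.6% of all genes. Among the 3 was Htr2c, the serotonin receptor 2C, at 10.5 and 11.97 against 1.22 and 0.827. Its higher level lay in the choroid plexus cells of low ribosomal share described below, and in the others it was near that of all other cells. Of the tight junction and epithelial genes, 2 of 7 were past upward and 5 downward in each library. The keratin gene Krt18 stood at 2.55 and 2.63 against 0.00734 and 0.00587, whereas Tjp1, a scaffold protein of tight junctions that other cells also use, was at 1.32 and 1.39 against 6.35 and 5.78. Among transcription factors, 2 of 5 were past upward and 2 downward in each library, and Msx1 was at 2.27 and 1.75 against 0.0286 and 0.0306.

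**Figure D1:**
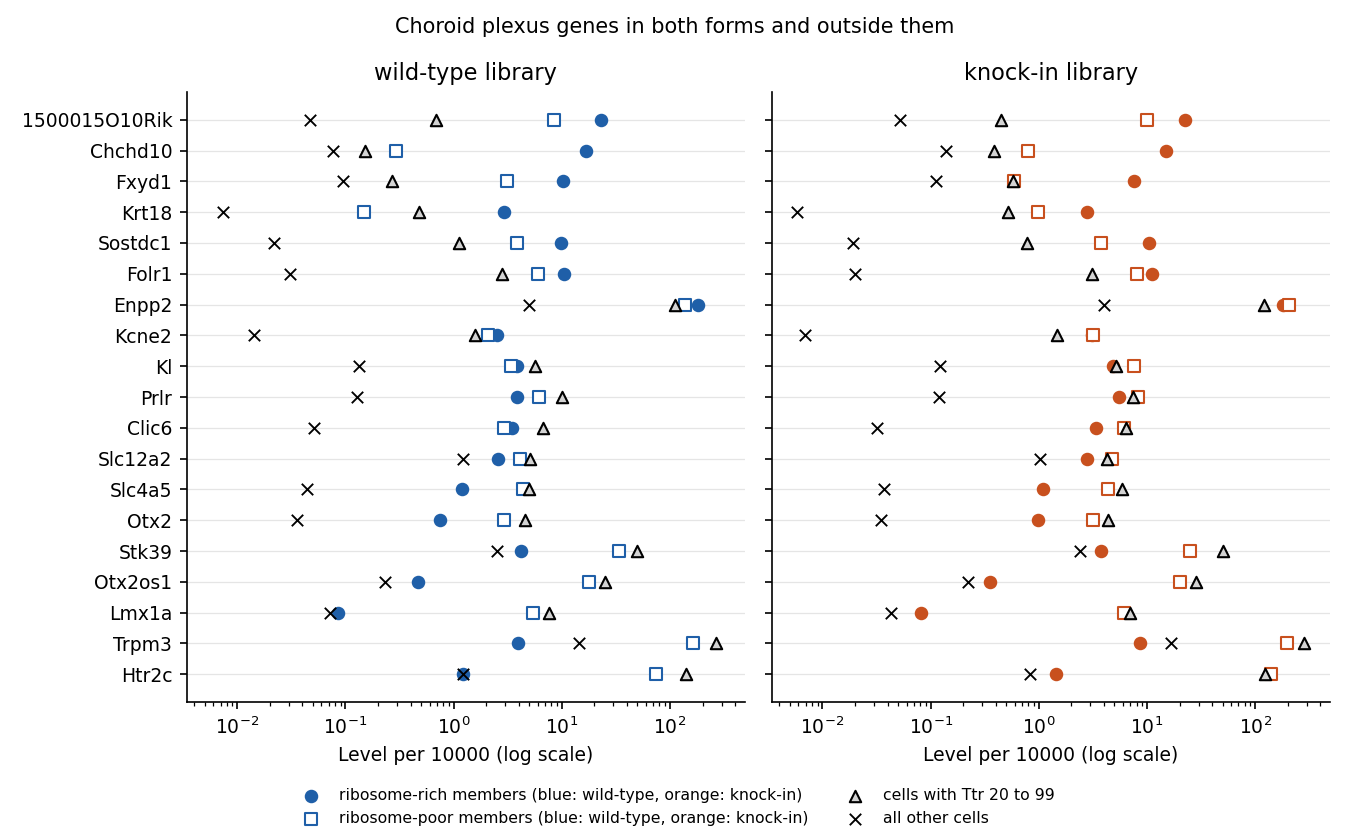
Levels per 10000 on a log axis of 19 choroid plexus genes in the wild-type (left) and knock-in (right) library, for ribosome-rich choroid plexus cells (filled circles), ribosome-poor ones (open squares), cells with Ttr of 20 to 99 outside the rule (grey triangles) and all other cells (crosses). Circles lie right of the crosses for genes such as Folr1, Enpp2 and Sostdc1, while for Htr2c the squares and triangles lie far right of the circles.

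Genes of protein synthesis and export and of respiration were also higher in the choroid plexus cells. The endoplasmic reticulum list summed to 42.1 and 51.4 per 10000 against 8.01 and 9.74 in all other cells. All 12 compared genes of it in the wild-type library and all 13 in the knock-in library were past the size rule upward. Over all genes the share was 27.9% and 28.4%. In the other cells only 1 and 3 genes of the list had a level of at least 1, so most compared genes could be past only upward. The limit on level acts the same way on the counts that follow. Hspa5, the chaperone BiP, was at 6.91 and 8.70 against 0.665 and 0.879, and Calr, calreticulin, at 6.301 and 8.535 against 0.916 and 1.16. Nuclear genes of oxidative phosphorylation were past upward in 66 of 67 cases in the wild-type library and 65 of 67 in the knock-in library. Ribosomal protein genes were so in 75 of 75 and 76 of 76. The last count went with the form of the cells: among the other cells, 91.3% in the wild-type library against 89.3% in the knock-in library had a ribosomal share below the value that divides the 2 forms described next. When ribosome-rich choroid plexus cells were set against other cells at or above that value, a comparison chosen after seeing the data, 2 of 75 and 7 of 76 ribosomal protein genes were past upward. The share of all compared genes past upward was 19.2% and 19.5%, and 61.1% of 2570 were past in the same direction in both libraries. Likewise 65 of 69 and 64 of 68 oxidative phosphorylation genes and 19 of 20 and 21 of 22 choroid genes were past upward. For the endoplasmic reticulum list the count was 7 of 12 and 7 of 13, and its summed level was 44.2 and 52.6 per 10000 against 24.8 and 25.9. The microglial receptor gene Csf1r was at 0.532 and 0.533 in these choroid plexus cells against 13.5 and 13.1 in those other cells, so the matched set held many microglial transcripts.

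Cells of the rule came in 2 forms. The ribosomal share of a cell is the percent of its values that came from 84 ribosomal protein genes. Its density over the choroid plexus cells had 2 peaks, at 0.332% and 4.06%, with the lowest point between them at 0.665%, which was used to divide them. Above it lay 53 wild-type and 65 knock-in cells, called ribosome-rich, with medians of 3.87% and 4.14%. Below it lay 8 wild-type and 5 knock-in cells, called ribosome-poor, with medians of 0.221% and 0.302%. The ribosome-poor form made up 13.1% of choroid plexus cells in the wild-type library (5.84% to 24.2%) against 7.14% in the knock-in library (2.36% to 15.9%), and these intervals overlap. The forms are ranges of a score and not cell types, and 5 cells lay within 0.3 percentage points of the dividing value.

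**Figure D2:**
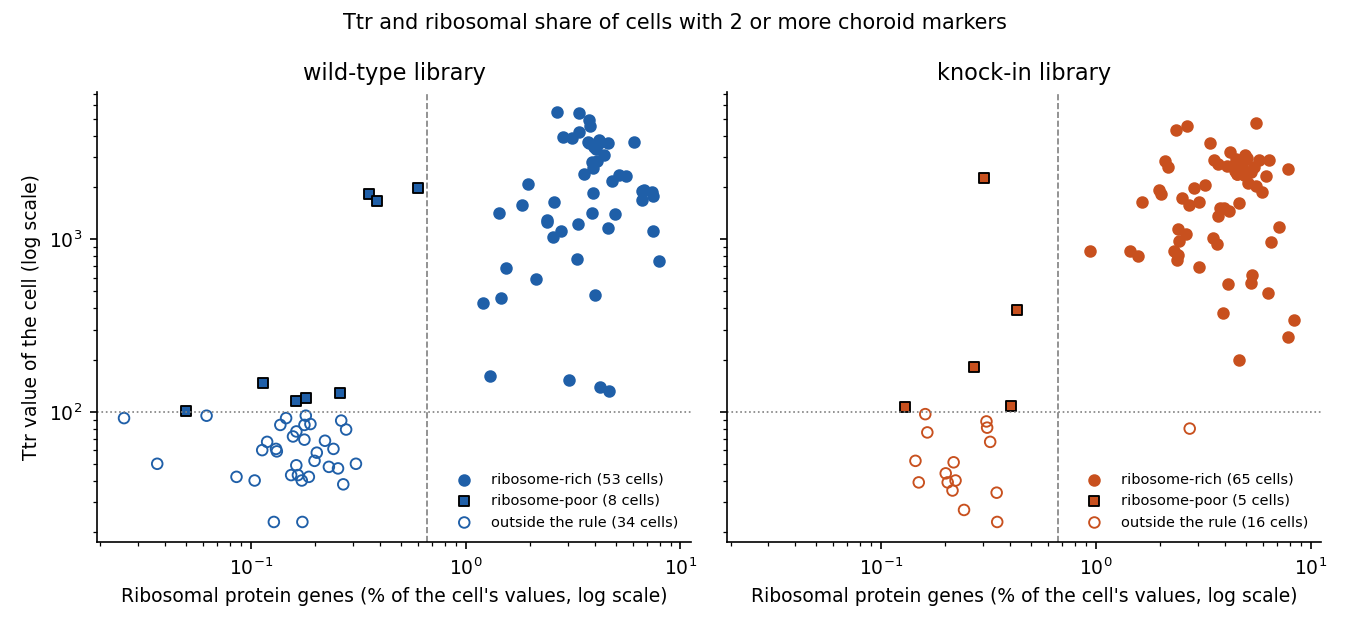
Each point is 1 cell of the wild-type (left) or knock-in (right) library, with its ribosomal share in percent against its Ttr value; the dotted line is the Ttr threshold of 100 and the dashed line the dividing ribosomal share of 0.665%. Most cells above the Ttr threshold lie above the dividing share, and of the cells with Ttr of 20 to 99 all but 1 lie below it.

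The Ttr threshold itself removed most cells of the ribosome-poor form. Cells with Ttr of 20 to 99 and at least 2 further markers, which the rule leaves out, numbered 34 in the wild-type library (0.479%, 0.332% to 0.669%) and 16 in the knock-in library (0.181%, 0.104% to 0.294%). All 34 wild-type and 15 of the 16 knock-in cells were below the dividing ribosomal share. They had a median of 5 further markers, as many as the knock-in choroid plexus cells. The 29 choroid genes outside the rule summed to 638 and 642 per 10000 in them, against 312 and 325 in the cells of the rule and 23.6 and 24.5 in all other cells. Including these low-Ttr cells was a choice made after seeing the data. With them, there were 95 choroid marker cells in the wild-type (1.34%, 1.08% to 1.63%) and 86 in the knock-in library (0.973%, 0.779% to 1.201%). The part of them below the dividing share was then 44.2% (34.0% to 54.8%) in the wild-type library against 23.3% (14.8% to 33.6%) in the knock-in library. The last 2 intervals did not overlap, nor did those of the low-Ttr share of all cells, but they cover counting error only and hold nothing of the spread between mice or dissections.

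What the forms differ in was described gene by gene. Of 2068 genes compared between ribosome-rich and ribosome-poor cells, 60.6% were past the size rule in the same direction in both libraries: 527 genes (25.5%) were higher in the ribosome-rich form and 726 (35.1%) were lower. In the wild-type library on its own 23.7% of genes were past the size rule on the ribosome-rich and 50.8% on the ribosome-poor side, and in the knock-in library 29.1% and 44.1%. Since the ribosomal share divided the cells, the ribosomal protein genes are part of the definition. An example is Rpl27, at 4.08 and 4.15 per 10000 in ribosome-rich cells and listed at 0 in all ribosome-poor cells of both libraries. Outside the definition, 63 of 69 oxidative phosphorylation genes were past the size rule on the ribosome-rich side in each library. Chchd10, a small protein of the mitochondrial intermembrane space, was at 16.7 and 15.1 in ribosome-rich against 0.294 and 0.794 in ribosome-poor cells. Leaving Ttr out of the sums moved the median ratio of all genes from -0.72 to -0.51 in the wild-type library and from -0.60 to -0.40 in the knock-in library.

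Choroid genes stood on both sides. Of the 29 outside the rule, 7 of 26 compared were past the size rule toward the ribosome-rich form and 11 toward the ribosome-poor form in the wild-type library, with a median ratio of 0.30. In the knock-in library 5 and 13 of 27 were, with a median of -0.69. Over all genes, 23.7% and 50.8% were past these ways in the wild-type library and 29.1% and 44.1% in the knock-in library. Medians over all genes were -0.72 and -0.60. The counts toward the ribosome-poor form were thus near the share of all genes. Among the genes higher in the ribosome-poor form, Htr2c, which carries the serotonin signal to this epithelium, was at 1.23 and 1.44 per 10000 in ribosome-rich cells, at 74.4 and 141 in ribosome-poor cells, and at 142 and 124 in the low-Ttr cells outside the rule. In the other cells it was at 1.22 and 0.827, a level like that of the ribosome-rich choroid plexus cells. Otx2os1, a noncoding RNA transcribed opposite to Otx2, was at 0.468 and 0.356 in ribosome-rich and 17.8 and 20.04 in ribosome-poor cells. Lmx1a, a transcription factor of the dorsal midline from which the plexus forms, was at 0.0851 and 0.0808 against 5.44 and 6.15. Esrrg, an orphan nuclear receptor, was at 0.255 and 0.259 against 17.4 and 42.1, and Trpm3, a cation channel, at 3.94 and 8.66 against 164 and 199. Stk39, a kinase that regulates chloride cotransporters, was at 4.19 and 3.75 against 33.8 and 25.2. All 6 genes were past the size rule toward the ribosome-poor form in both libraries.

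The lists by role are set here beside the shares of all genes just given, 23.7% and 29.1% past toward the ribosome-rich form and 50.8% and 44.1% toward the ribosome-poor form. Among carriers and secreted factors, 9 of 19 genes were past the size rule toward the ribosome-rich form and 3 toward the ribosome-poor form in the wild-type library, and 7 and 1 of 16 in the knock-in library. Sostdc1 was at 9.77 and 10.4 against 3.83 and 3.77 and past the size rule in both libraries. Clu, the secreted chaperone clusterin, was at 25.02 and 22.7 against 9.86 and 11.9, past it in the wild-type library only. Of the receptors, 11 of 15 in the wild-type library and 8 of 11 in the knock-in library were past toward the ribosome-poor form, with 0 and 1 the other way. Transcription factors were past that way in 6 of 7 cases in each library and solute transporters in 8 of 14 and 8 of 13, with 0 the other way for both lists. For the transporters this is near the share of all genes. Transcription factors with a level of at least 1 numbered 1 and 2 in ribosome-rich against 7 and 7 in ribosome-poor cells. Receptors numbered 7 and 7 against 14 and 10, and transporters 6 and 8 against 13 and 12. A gene that reached the limit on level only in ribosome-poor cells could be past only that way, so these counts are a description. Fluid secretion was mixed, with 3 of 18 genes past toward the ribosome-rich and 7 toward the ribosome-poor form in the wild-type library, and 4 and 8 of 20 in the knock-in library. Within it Car2 was higher in ribosome-rich cells, at 2.87 and 3.23 against 0.588 and 0.794. The bicarbonate cotransporter gene Slc4a5 was higher in ribosome-poor cells, at 4.41 and 4.36 against 1.19 and 1.08. Enpp2, at 183 and 182 in ribosome-rich and 139 and 207 in ribosome-poor cells, was not past the size rule in either library.

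Genes of the 2 sides differed in a feature the division had not used, the length of genome they span. By the annotation of GENCODE M21 on GRCm38, the median span was 4.75 kb for genes higher in the ribosome-rich form, 129 kb for those higher in the ribosome-poor form and 67.9 kb for all genes compared. A span of 100 kb or more was found for 3.05%, 61.2% and 41.3% of these genes. The short-span side included 75 ribosomal protein genes, 60 oxidative phosphorylation genes and 76 pseudogenes, whose values can come from reads of their parent genes. Of the genes named above, Trpm3 spans 856 kb, Esrrg 606 kb, Htr2c 235 kb and Otx2os1 202 kb, and Rpl27 spans 3.23 kb and Chchd10 4.62 kb. Htr2c lies at chrX:146962513-147197277 on the plus strand and Enpp2 at chr15:54838901-54952892 on the minus strand. Counting of intronic reads by the authors is not given in the sources used here, and its part in this difference was not tested.

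**Figure D3:**
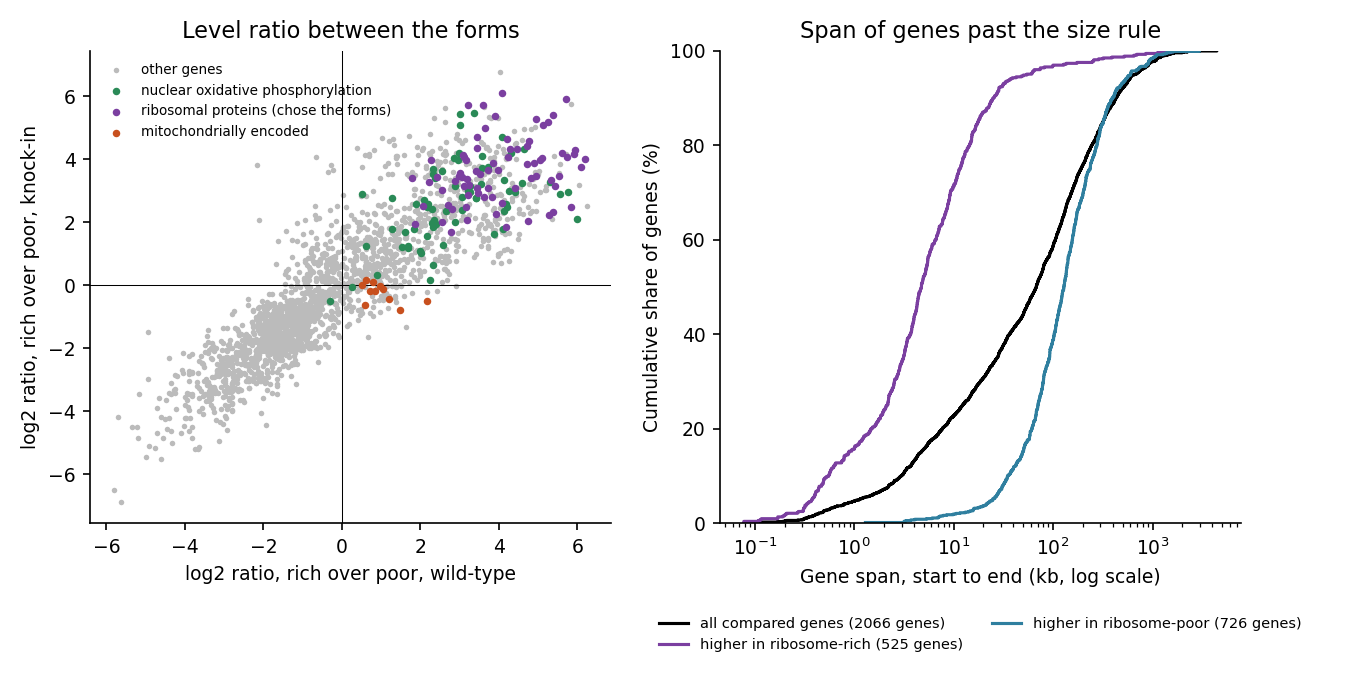
Left, log2 ratio of ribosome-rich over ribosome-poor levels in the wild-type (horizontal) against the knock-in library (vertical), 1 point per gene, coloured by list. Right, cumulative share of genes by genomic span in kb on a log axis for all genes compared, those higher in the ribosome-rich form (median 4.75 kb) and those higher in the ribosome-poor form (median 129 kb).

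The nuclear RNA Malat1 took a median of 0.442% of the values of a wild-type choroid plexus cell and 0.660% of those of a knock-in one. In the ribosome-poor cells the median was 1.58% in both libraries, and in the low-Ttr cells 1.70% and 1.65%. Across choroid plexus cells, ribosomal share and Malat1 share were related with a Pearson r of -0.58 over 61 wild-type and -0.63 over 70 knock-in cells. These correlations describe cells that share a library and shares that share a total, and they carry no p. Neuron markers moved with both measures: their summed level had an r of -0.41 with the ribosomal share in each library, and of 0.51 and 0.52 with the Malat1 share, and their part in the relation was not tested. Mitochondrially encoded transcripts did not follow the nuclear oxidative phosphorylation genes across the forms. In the wild-type library 4 of 11 were past toward the ribosome-rich form with a median ratio of 0.80. In the knock-in library 0 of 13 were past that way and 1 the other way, with a median of -0.19.

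The 13 ribosome-poor cells were not alike. Of them 8, 5 wild-type and 3 knock-in, had Ttr values of 101 to 182, mitochondrial shares of 0.0695% to 0.832% and Malat1 shares of 0.936% to 3.499%, near the low-Ttr cells outside the rule. The other 5 had Ttr values of 1823, 1659 and 1990 in the wild-type library and 2265 and 390 in the knock-in library. Their mitochondrial shares were 7.01%, 7.05% and 1.37%, and 8.62% and 12.8%. Htr2c was at 108 and 199 per 10000 in the 8 cells of low Ttr and at 0 and 67.2 in the other 5. Trpm3 was at 234 and 322 against 9.53 and 41.5, and Otx2os1 at 25.8 and 23.4 against 0 and 15.8. Each of these genes was thus higher in the 8 cells. Clu went the other way, at 2.77 and 1.77 in the 8 cells against 25.7 and 24.8 in the other 5, which is near its level in ribosome-rich cells. With Ttr of at least 200 required of every cell, 587 genes were past the size rule between the forms in place of 1253, with 432 of them higher in the ribosome-rich and 155 in the ribosome-poor form. Neuron markers summed to 83.9, 77.1 and 160 per 10000 in the 3 wild-type cells of high Ttr, and to 67.9 and 0 in the knock-in ones. Ribosome-rich cells were not alike either. Their neuron markers ranged from 0 to 192 per 10000 in the wild-type library and from 0 to 138 in the knock-in library. Their Malat1 shares ranged from 0.0345% to 2.74% and from 0.0316% to 2.80%.

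Markers of other cell types were also found in the choroid plexus cells. In choroid plexus cells of the wild-type and knock-in library, neuron markers summed to 33.1 and 31.3 per 10000, against 131 and 118 in all other cells. At least 2 of 10 neuron markers had a value of 2 or more in 39 wild-type and 43 knock-in choroid plexus cells. Of these, 32 and 40 were ribosome-rich and 7 and 3 ribosome-poor. Dentate granule neuron markers summed to 5.07 and 7.71 against 33.1 and 27.5, astrocyte markers to 3.53 and 6.55 against 24.2 and 27.1, oligodendrocyte markers to 6.02 and 6.14 against 27.8 and 23.9, and microglia and macrophage markers to 5.91 and 8.55 against 15.3 and 19.0. Each of these pooled sums was lower in the choroid plexus cells than in the rest. Single cells varied widely, with neuron markers from 0 to 192 per 10000 in wild-type and from 0 to 138 in knock-in choroid plexus cells. The highest cells thus lay above the pooled neuron sums of all other cells. Markers of the stroma and vessels that underlie the epithelium were near 0: endothelial genes summed to 0.725 and 0.717 against 0.524 and 0.594 in all other cells, pericyte genes to 0.335 and 0.508 against 0.336 and 0.560, and fibroblast genes to 0.799 and 1.32 against 1.03 and 1.89. These low sums were thus close to those in the rest. Haemoglobin genes summed to 0.204 and 0.164 against 5.08 and 7.63. Genes at 0 numbered 2 of 9 endothelial, 5 of 7 pericyte and 2 of 10 fibroblast markers in the wild-type cells, and 0, 3 and 3 in the knock-in cells. Ependymal markers were higher than in the rest: they summed to 8.16 and 6.85 in the cells of the rule, to 3.08 and 2.57 in all other cells and to 32.4 and 27.8 in the low-Ttr cells outside it. A rule of at least 3 ependymal markers and fewer than 2 neuron markers, each at a value of 2 or more, found 21 cells outside the choroid plexus cells. Of them 18 were those low-Ttr choroid marker cells, so no ependymal set could be compared. Scrublet called 61 wild-type (0.860%) and 209 knock-in cells (2.37%) doublets, and 0 of them were choroid plexus cells.

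The genotypes were compared within the choroid plexus cells. Pigv, the targeted gene, at chr4:133660387-133672647 on the minus strand, had a value above 0 in 1 of 61 wild-type and 5 of 70 knock-in cells, levels of 0.0186 and 0.0747 per 10000. That is too low to check the labels, since the allele is an edit within the gene. Of 1673 genes compared, 18 (1.08%) were past the size rule: 13 (0.777%) were higher in the knock-in and 5 (0.299%) higher in the wild-type library. With Ttr left out of the sums the counts were 17 and 21, and with cells of Ttr 50 to 99 included they were 31 and 103, so the balance of directions depended on these choices. Without the choroid plexus cells that had at least 2 neuron markers, 43 genes were past it, of which 8 were among the 18. In all other cells 6 of 2084 genes (0.288%) were past the size rule.

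**Figure D4:**
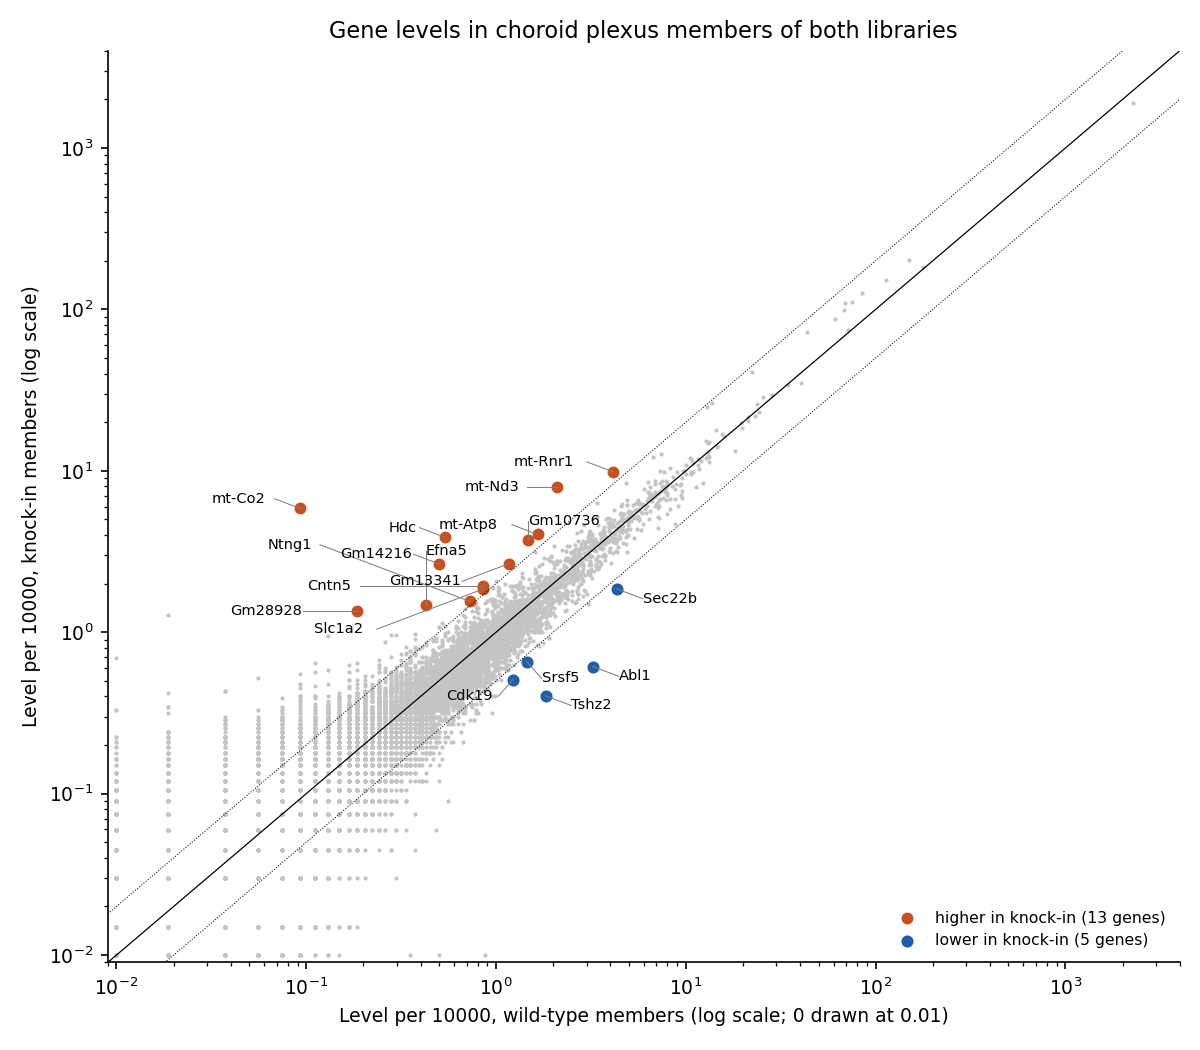
Level per 10000 in wild-type (horizontal) and knock-in (vertical) choroid plexus cells on log axes, 1 point per gene, with levels of 0 drawn at 0.01 and dotted lines at 2-fold. The 18 genes past the size rule are labelled; most other genes lie between the dotted lines.

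Between the libraries, no gene of the lists for choroid plexus function was past the size rule. Of the 29 choroid genes outside the rule, 25 were compared and 0 were past the size rule, with a median ratio of 0.08 beside -0.04 over all genes. Likewise 0 of 17 carriers and secreted factors (median 0.06), 0 of 17 fluid secretion genes (0.08), 0 of 9 solute transporters (0.16), 0 of 8 receptors (0.04), 0 of 4 junction genes (0.05) and 0 of 4 transcription factors (-0.21) were past it. Of the rule markers 0 of 8 were past it (0.16), which is a description only. Ttr itself was at 2255 in wild-type against 1893 in knock-in cells of the plexus, a ratio of -0.25. Prlr, the prolactin receptor, was at 4.16 and 5.68, and Kl, the klotho coreceptor of fibroblast growth factor signalling, at 3.77 and 5.02, ratios of 0.44 and 0.40. Without replicates these differences have no measure of spread between animals.

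Genes of the GPI anchor were described next, since Pigv acts in its synthesis. Against the other cells, 3 of 23 genes of GPI-anchored proteins were past the size rule upward and 16 downward in the wild-type library, and 3 and 13 of 21 in the knock-in library, where 52.5% and 58.6% of all genes were past downward. Between the libraries, of the biosynthesis genes 0 of 3 compared were past the size rule, with a median of 0.04 over 11 genes. Among genes of GPI-anchored proteins, 3 of 16 compared were past it, all higher in the knock-in library, and the median over 27 genes was 0.04. Over all genes, 0.777% were past upward and 0.299% downward. In this list 11 genes had a level of at least 1 in wild-type and 16 in knock-in cells. The 3 genes reached the limit on level in the knock-in library only, so they could be past in no other direction. They were Efna5, an ephrin ligand, Cntn5, a contactin of neuronal contacts, and Ntng1, netrin G1, which guides axons. Efna5 was at 0.428 and 1.46 per 10000, above 0 in 10 of 61 and 16 of 70 cells, a ratio of 1.57. Cntn5 was at 0.855 and 1.93, a ratio of 1.09, with 28.7% of the knock-in sum in 1 cell. Ntng1 was at 0.725 and 1.55, a ratio of 1.00, with 36.5% of the knock-in sum in 1 cell. All 3 have known roles in neurons, and in the other cells their ratios were 0.70, 0.12 and 0.13. Of 17 alternative settings, Efna5 met the size rule in 11, Cntn5 in 11 and Ntng1 in 8. Some of the 17 could not drop a gene that was past the size rule. These were 0.01 added to both levels, a level of at least 0.5, no limit on level or cells, and Scrublet calls left out. Every count out of 17 given here includes them. Over the choroid plexus cells whose neuron markers summed to under 100 per 10000, an alternative chosen after seeing the data, Ntng1 had a ratio of -0.63, so its direction turned with the cells taken. The part of neuronal RNA in these ratios was not tested.

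Of the Eph receptors, ephrins and Abl kinases, which the title of the study names, 1 of 6 compared genes was past the size rule upward, the Efna5 already given, and 1 downward, with a median of -0.20. The latter was Abl1, a tyrosine kinase of cytoskeletal signalling, at 3.23 per 10000 in the wild-type library against 0.613 in the knock-in library, a ratio of -2.23. Abl1 was above 0 in 51 of 61 and 32 of 70 cells, or in 21.3% and 11.4% once every cell had been thinned to a sum of 1000. It was past the size rule in the other cells too, at 9.045 and 1.297, a ratio of -2.71. The difference was thus present in choroid plexus cells and in the rest of the hippocampus alike. Abl1 lies at chr2:31688376-31804227 on the plus strand.

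A list of 10 genes was taken because earlier results of these data showed them to differ in most cell types, and it is no independent evidence. Of 7 compared here, 2 were past the size rule upward and 3 downward. Hdc, histidine decarboxylase, which makes histamine, was at 0.539 in wild-type against 3.87 in knock-in cells of the plexus, a ratio of 2.64. Its value was above 0 in 28 of 61 and 55 of 70 cells, or in 4.92% and 28.6% after thinning. Gm14216, a long noncoding RNA gene, was at 0.502 and 2.65, a ratio of 2.19. Sec22b, a protein of vesicle traffic between endoplasmic reticulum and Golgi, was at 4.33 and 1.85, a ratio of -1.18. In the other cells the ratios of Hdc, Gm14216 and Sec22b were 4.09, 4.12 and -1.12, each past the size rule there as well.

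Tshz2 and Cyp4x1 also belong to that list. Tshz2, a zinc finger transcription factor, was at 1.82 in wild-type against 0.404 in knock-in cells of the plexus, a ratio of -1.93, beside -0.46 in the other cells. Its value was above 0 in 52 of 61 and 19 of 70 cells, or in 26.2% and 2.86% after thinning. It kept its side of the size rule in 16 of 17 alternative settings, and Sec22b did so in 12. Whether the ratio differs between choroid plexus and other cells was not tested. Cyp4x1, a cytochrome P450 gene, was listed at 0 in all 61 wild-type cells and was above 0 in 30 of 70 knock-in cells at a level of 0.688, under the limit of 1. Of the rest of the list, Gm17660 was at 0.130 and 0.942, Cdh18 at 1.25 and 0.628, Mapk14 at 0.967 and 1.87 and Rab40b at 0.465 and 0.463, and these were not past the size rule. Cdk19 and Srsf5, a kinase of the Mediator complex and a splicing factor, were past the size rule downward with ratios of -1.13 and -1.03, beside -0.22 and 0.24 in the other cells. Cdk19 met the size rule in 9 and Srsf5 in 10 of the 17 alternative settings. For Cdk19, 1 cell held 42.4% of the wild-type sum. Hdc lies at chr2:126593667-126619299, Gm14216 at chr2:154722352-154738451 and Tshz2 at chr2:169633013-170071816. Together with Abl1, Slc1a2 and the pseudogene Gm13341 they made 6 of the 18 genes past the size rule, all on chromosome 2, which held 137 of the 1671 compared genes with 1 position, or 8.20%. The count by chromosome was made after the values were seen.

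Mitochondrially encoded transcripts were at higher levels in the knock-in library. Of 12 compared, 4 were past the size rule upward, and all 15 with a level of at least 0.2 had a ratio above 0, with a median of 0.85. Their levels summed to 299 per 10000 in the wild-type library against 484 in the knock-in library. In the other cells the sums were 32.4 and 48.1 with a median ratio of 0.63, so the same direction held there. A median of 2.88% of the values of a wild-type choroid plexus cell, with a range of 0.0695% to 7.69%, came from these genes, and 4.56% in the knock-in library, with a range of 0.0866% to 19.0%. The cells of both libraries overlapped over most of these ranges.

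Single mitochondrial transcripts differed in size of ratio. mt-Co2, subunit 2 of cytochrome c oxidase, was at 0.0929 in wild-type against 5.84 in knock-in cells of the plexus, a ratio of 4.95. Its value was above 0 in 5 of 61 and 53 of 70 cells, or in 3.28% and 32.9% after thinning, and it was at 0.00542 and 0.445 in the other cells. mt-Nd3, a subunit of complex I, was at 2.08 and 7.97, a ratio of 1.89. mt-Rnr1, a ribosomal RNA of the mitochondrion, was at 4.11 and 9.88, a ratio of 1.25, with 26.6% of the knock-in sum in 1 cell. mt-Atp8, a subunit of ATP synthase, was at 1.65 and 4.04, a ratio of 1.24. Nuclear genes of oxidative phosphorylation did not share the shift, with 0 of 69 past the size rule and a median of 0.01. For mt-Co2 and mt-Nd3, together with Abl1 and Hdc, the size rule was met in all 17 alternative settings. Some of these settings, named above, could not drop a gene. The genes Gm10736, Gm13341 and Gm28928, also past the rule, with ratios of 1.28, 1.12 and 2.35, are annotated as a processed pseudogene, an unprocessed pseudogene and a long noncoding RNA gene, and 1 cell held 54.9% of the knock-in sum of Gm28928.

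**Figure D5:**
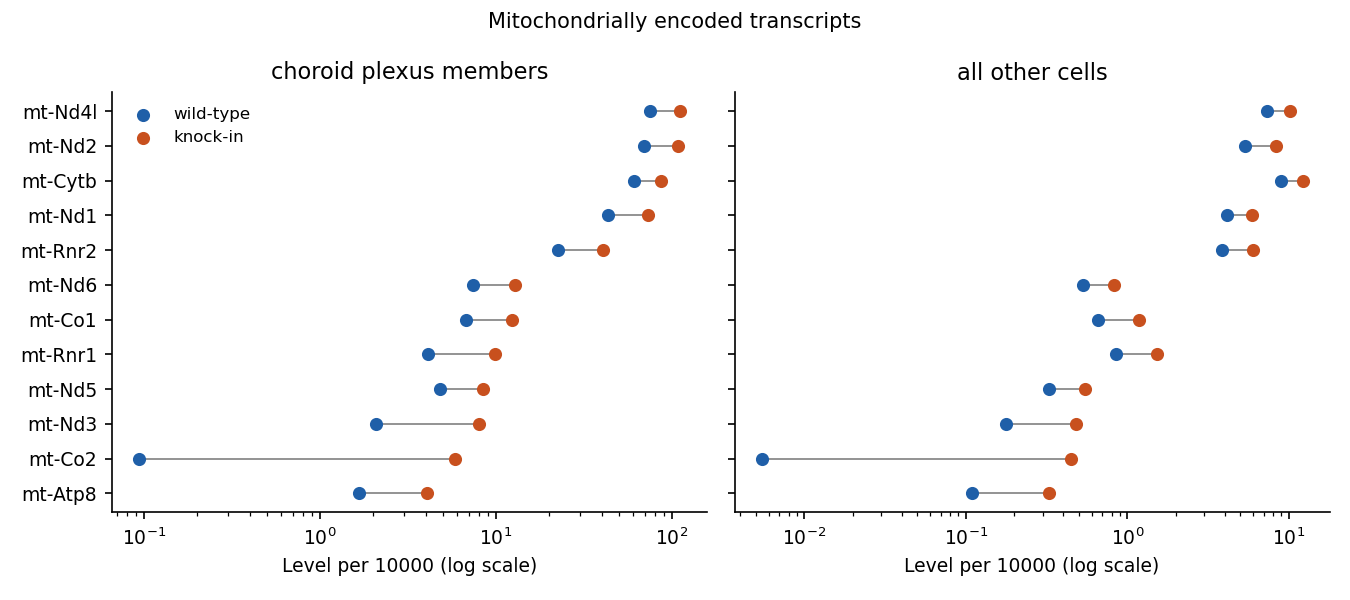
Level per 10000 of 12 mitochondrially encoded transcripts in the wild-type and the knock-in library on a log axis, for choroid plexus cells and all other cells. Knock-in levels lie above wild-type levels for the transcripts shown in choroid plexus cells, with mt-Co2 farthest apart.

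The remaining lists gave few genes past the size rule between the libraries. In the endoplasmic reticulum list 0 of 13 were past it (median 0.20), in the ribosomal protein list 0 of 76 (0.13), in the nuclear noncoding RNA list 0 of 5 (-0.09), in the immediate early and heat shock list 0 of 3 (0.06) and in the inflammatory and interferon list 0 of 2 (-0.12). No gene of the primary cilium, endothelial, pericyte, fibroblast or haemoglobin lists reached the limit on level. Of the markers of other cells, 0 of 2 ependymal (-0.10), 0 of 6 neuron (-0.04), 0 of 2 dentate granule (0.12), 0 of 2 oligodendrocyte (0.00) and 0 of 3 microglia genes (0.46) were past it. Among astrocyte markers 1 of 3 was past it upward, with a median of 0.92. It was Slc1a2, the glial glutamate transporter, at 0.855 in wild-type against 1.85 in knock-in cells of the plexus, a ratio of 1.03. One cell in each library held 34.8% and 33.9% of its sum, so this difference rested on few cells, and the size rule was met in 10 of 17 alternative settings.

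Within the ribosome-rich form alone, 22 of 1527 genes (1.44%) were past the size rule between the libraries, 16 upward (1.05%) and 6 downward (0.393%), and mitochondrial transcripts had a median ratio of 0.78. In the ribosome-poor form 998 of 2636 genes (37.9%) were past it, with 8 wild-type against 5 knock-in cells. In the low-Ttr cells outside the rule, with 34 against 16 cells, 220 of 2633 genes (8.36%) were. Among these sets, the share past the size rule was larger where fewer cells were summed. The sets also differed in ribosomal share and in Ttr, and the part of cell number was not tested.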

How the data were processed

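The authors deposited 1 table of genes by cells whose values are depth-corrected scores: whole numbers with totals per cell in a narrow band. Seurat 3.0.0 and the build GRCm38 are named per the submitters' processing notes. The aligner, how cells were filtered and whether doublets had been removed are not given in the sources used here. Because such scores are not raw counts and their sequencing depth is unknown, no count model was used, and with 1 library per genotype no p-value or error of a level was computed. Each column was assigned to its library by its name.

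From the table, levels per 10000 and log2 ratios with 0.1 added were computed in Python 3.11.15 (numpy 2.4.6, scipy 1.17.1), with scripts tested on simulated data. A ratio between forms, or against the other cells, counted as past the size rule over both libraries only where it was past in each, in the same direction. List medians used genes whose mean level reached 0.2. Shares have exact 95% intervals. The ribosomal share was divided at the lowest point of its density. Shares of cells above 0 were also taken after thinning each cell to a total of 1000. Doublets were kept, and Scrublet (scanpy 1.11.5, expected rate 6%) was run per library. Figures were drawn with matplotlib 3.10.9, and positions are those of GENCODE M21.

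Named genes were the rule markers, list genes with a level of at least 1 in a library, the 10 largest ratios past the size rule in each direction of each comparison, Pigv, and the list taken from earlier results. Lists covered choroid genes by role, other cell types, GPI and Eph genes, organelles, stress and RNA classes. Members and lists were chosen with earlier results of these data known. Csf1r was named after its values were seen, and a few genes the rule would name are not reported here. Alternatives changed the thresholds of the rule, the dividing share, the added value, the limit on level, the place of Ttr in the sums, the doublets and the weight of the forms.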

Additional observations from a re-analysis of the deposited data

Results flagged for a closer look

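Slc1a2, which encodes the glial glutamate transporter, had a log2 ratio of knock-in over wild-type levels of 1.62 in the ribosome-rich choroid plexus cells and of -2.54 in the ribosome-poor ones. It was picked out because the direction was opposite in the 2 forms. The ribosome-poor form held 8 wild-type and 5 knock-in cells, and 1 cell in each library held 34.8% and 33.9% of the gene's sum over all choroid plexus cells. The difference between the forms was not tested.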

How the results depend on the processing

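No paired analysis was possible because each genotype was 1 pooled library without replicates. The share of choroid plexus cells in the wild-type library became 1.17% with Ttr of at least 50 and 1.34% with Ttr of at least 20, the latter chosen after seeing the data, beside 0.883% and 0.973% in the knock-in library. With Ttr of at least 200 the order of the libraries turned, to 0.733% wild-type and 0.747% knock-in. The ribosome-rich share became 47.5% and 52.9% in wild-type and knock-in cells when divided at the median, which the construction of a median gives, and 55.8% and 76.7% with Ttr of at least 20.

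Genes past the size rule between the libraries, 18 as reported, numbered 134 (31 higher, 103 lower) with Ttr of at least 50, 104 (35 and 69) with at least 20, 7 with 1 added to both levels, 30 with 0.01 added, 69 and 10 with a level of at least 0.5 and 2, 413 with no limit on level or cells, 38 with Ttr left out of the sums, 56 with values of 1 set to 0, 43 without cells with 2 or more neuron markers, of which 8 were among the 18, and 251 (102 and 149) with both forms weighted equally. The balance of 13 higher to 5 lower thus turned with both lower Ttr thresholds, with the forms weighted equally and with Ttr left out of the sums (17 and 21). Between the forms, 1253 became 587 with Ttr of at least 200, 1971 with at least 20, 686 with 1 added, 2026 and 643 with a level of at least 0.5 and 2, and 3547 with no limit. Against the other cells, 2026 became 996 with 1 added and 1108 with a level of at least 2. Apart from the limits, which set how many genes are compared, the cause was not tested. Slc1a2 turned to -0.48 with both forms weighted equally and Ntng1 to -0.63 in cells with few neuron markers.

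Under all alternatives, 33 values of these shares and counts stayed within their limits and 25 moved. Leaving out Scrublet calls removed 0 choroid plexus cells. Its ribosome-rich shares and its counts of 18 and 1253 genes were therefore the same by construction. Depth is unknown, so low levels and values of 1 have no known precision. Each gene's ratio rests on 61 and 70 cells, and for several on few of them. Of 24 lists with at least 5 genes, 9 had a median that changed sign under an alternative between the libraries.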
